A study of Mus musculus with 16 samples.

Results

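The genes described here are the 4 matrilins (Matn1, Matn2, Matn3 and Matn4), the thrombospondins Comp, Thbs1 and Thbs4, the cartilage intermediate layer genes Cilp and Cilp2, and Prg4, which encodes lubricin. They were taken by name from a table of 49315 genes, and each of the 10 names matched 1 row. Their RNA was measured by bulk sequencing in tail intervertebral discs, with 4 discs combined from each of 16 mice. Some mice carried the Adam8EQ allele and are called mutants here, the rest were wild type, and in either genotype the discs were INJURED or INTACT. There were 3 intact and 4 injured wild-type mice, and 4 intact and 5 injured mutant mice. The series title gives DBA as the comparison strain. What the EQ allele changes in the protein, how and when the discs were injured, and the age and sex of the mice are not given in the sources used here. Adam8, the mutated gene, encodes a membrane-anchored metalloprotease. It lay at 0.956 to 2.97 TPM in the 7 intact libraries and at 3.52 to 264.1 TPM in the 9 injured ones, and the labels do not say that the allele changes its RNA level.

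These genes encode secreted proteins that organise the extracellular matrix rather than form its bulk. Matrilins are adaptor proteins that link collagen fibrils, aggrecan and other matrix components into filaments. COMP, also called thrombospondin-5, and thrombospondin-4 are pentamers that bind several chains of fibrillar collagen at once, whereas thrombospondin-1 is a trimer best known as an activator of latent TGF-beta and an inhibitor of blood vessel growth. CILP is a glycoprotein of the layer between the surface and the deep zone of cartilage. It can bind TGF-beta1, and a variant of the human gene has been linked to lumbar disc disease. CILP2 is its close relative. Lubricin is a mucin-like proteoglycan that coats joint surfaces and tendons and lowers friction.

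The values are TPM, a measure of transcript abundance corrected for how long a gene is and how deep its library is, so levels of different genes can be set side by side. A change is the gap between 2 group means of log2(TPM + 1), and on that scale changes of weakly expressed genes come out too small. They were tested with limma over the 24188 genes that reached 1 TPM in at least 3 libraries, and a gene is said to have passed when its Benjamini-Hochberg adjusted p was under 0.05. The reads implied by the TPM values were 10195160 to 24832936 per library, with a median of 13310233. In intact discs the nucleus pulposus transcription factor T lay at 1789 to 3370 TPM and the cartilage transcription factor Sox9 at 353 to 554 TPM, so defining markers of disc cells were present, while the notochord gene Noto was at most 0.785 TPM. The neutrophil markers S100a8, S100a9, Ly6g, Retnlg and Mpo summed to 4.63 TPM or less in each intact library. Other tissue was present. Skeletal muscle markers summed to 178.3 to 723.8 TPM in intact wild-type and 111.3 to 140.0 TPM in intact mutant libraries. Red blood cell markers summed to 265.5 to 728.1 TPM and 68.1 to 273.3 TPM in the same groups. In whole discs, fewer cells of a type and less RNA per cell cannot be told apart.

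RefSeq promoter windows on GRCm38.p6, from 250 bases before to 50 bases after a gene's start, were found for 6 of the 10 genes. Those of Cilp, Cilp2 and Thbs4 are shown because both Cilp genes fell with injury in mutants and Thbs4 rose. The Cilp window lies on the plus strand at chr9:65264930-65265229, the Cilp2 window on the minus strand at chr8:69887343-69887642 and the Thbs4 window on the minus strand at chr13:92794769-92795068. Capitals mark matches, on either strand, to a TATA box (TATAAA), a GC box (GGGCGG), a SOX site (AACAAT) or an AP-1 site (TGANTCA).
Cilp: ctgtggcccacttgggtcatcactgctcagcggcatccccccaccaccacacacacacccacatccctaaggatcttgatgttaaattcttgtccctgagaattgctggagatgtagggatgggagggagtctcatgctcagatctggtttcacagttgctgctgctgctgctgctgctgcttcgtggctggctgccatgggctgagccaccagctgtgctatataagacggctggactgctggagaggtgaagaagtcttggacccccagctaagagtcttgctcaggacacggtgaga
Cilp2: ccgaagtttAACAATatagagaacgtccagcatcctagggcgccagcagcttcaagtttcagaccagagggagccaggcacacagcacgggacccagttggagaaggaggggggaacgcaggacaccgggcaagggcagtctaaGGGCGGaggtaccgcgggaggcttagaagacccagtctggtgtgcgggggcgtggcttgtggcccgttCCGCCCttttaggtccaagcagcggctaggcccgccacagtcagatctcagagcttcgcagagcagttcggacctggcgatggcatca
Thbs4: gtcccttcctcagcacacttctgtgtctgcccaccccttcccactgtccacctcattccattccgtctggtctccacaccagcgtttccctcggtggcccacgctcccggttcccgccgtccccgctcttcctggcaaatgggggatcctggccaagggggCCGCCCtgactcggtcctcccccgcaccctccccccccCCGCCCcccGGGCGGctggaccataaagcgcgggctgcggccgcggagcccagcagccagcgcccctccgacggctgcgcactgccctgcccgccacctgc
The Cilp window held no exact match to any of the 4 motifs. Only exact letters were searched, so its TATA-like stretch tatataag was not counted. Distances are from the RefSeq start. For Cilp2 that start lies downstream of the GENCODE start, so its whole window falls inside the gene as GENCODE M21 draws it. The Cilp2 window held 2 GC boxes, starting 106 and 38 bases before the RefSeq start, and 1 SOX match 241 bases before it. The Thbs4 window held 3 GC boxes, at 89, 51 and 42 bases before the start, and 72.0% of its bases were G or C, against 55.7% in Cilp, 61.3% in Cilp2 and a median of 52.7% over 32851 windows. Of these windows, 35.7% held a GC box, 10.7% a SOX match, 13.6% a TATA box and 7.81% an AP-1 match, so the motifs found are common ones.

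In intact wild-type discs the 10 genes spanned the whole range of expression. Comp was the highest, at 3102 ± 704 TPM (SD, n = 3), and ranked 25th among all genes of the table. Thbs1 at 1732 ± 480 TPM and Prg4 at 1502 ± 304 TPM followed, and their ranges overlapped. Cilp2 at 261 ± 67.8 TPM and Cilp at 223 ± 64.6 TPM also overlapped each other. Matn2 lay at 106 ± 9.80 TPM and Thbs4 at 32.6 ± 12.4 TPM, and neither overlapped its neighbours in this order. Matn3 at 1.20 ± 0.411 TPM and Matn4 at 0.454 ± 0.473 TPM were at the edge of detection, and Matn1 was listed at 0. Intact mutant discs had the same order. After injury the order of the means differed. Prg4 came first by its mean in both genotypes, but in the injured wild type its range overlapped that of Comp. There Comp was still above Prg4 in mice 1 and 4, with Prg4 to Comp ratios of 0.867 and 0.840. Thbs4 moved above Cilp, Matn2 and Cilp2 by its mean, and Cilp2 ranked below Matn2, although the ranges of Cilp2 and Matn2 overlapped in both injured groups. The 10 genes together took 5792 to 7785 TPM in intact wild-type and 7993 to 8973 TPM in intact mutant libraries.

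**Figure D1:**
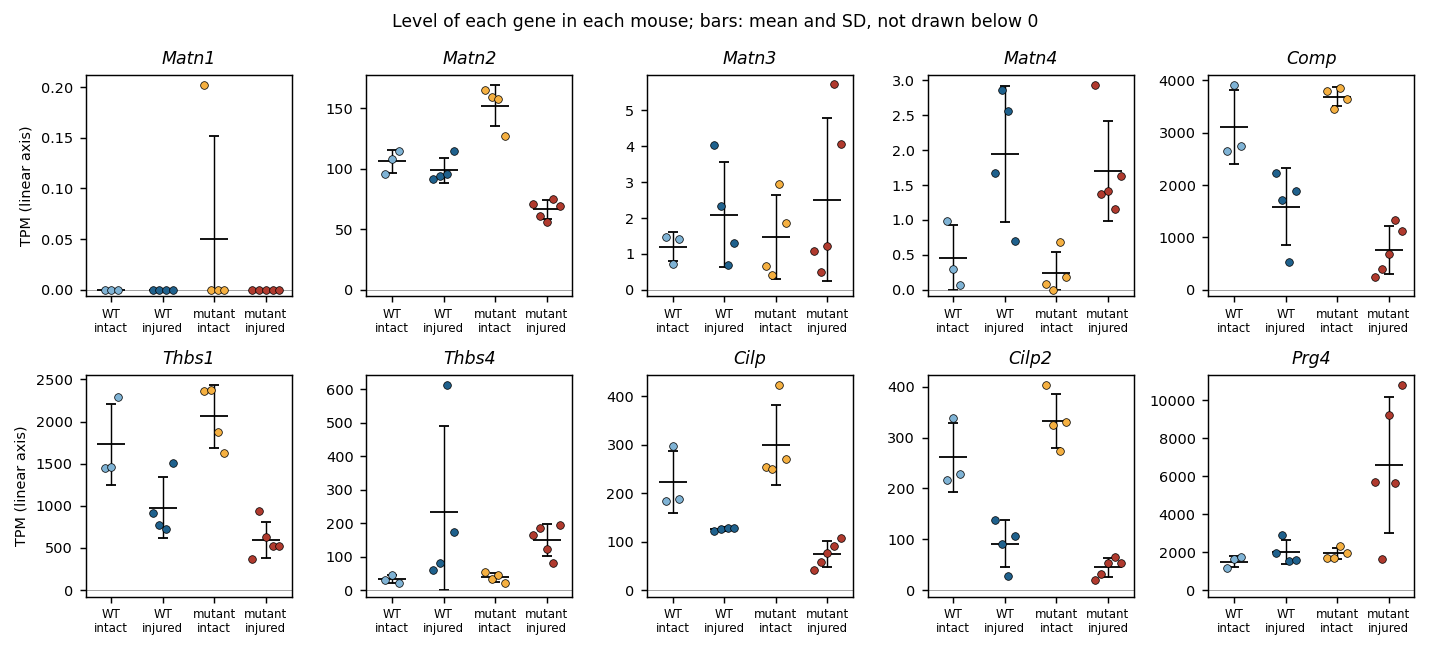
Level of the 10 genes in TPM on linear axes, 1 point per mouse, by group. Horizontal bars are group means and whiskers are SD, not drawn below 0. Comp, Cilp, Cilp2 and Thbs1 are lower after injury in both genotypes, by means, whereas Prg4 reaches 5658 TPM or more in 4 of the 5 injured mutants and in no other library.

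Injured and intact discs were compared within each genotype to find which of these genes differ after injury. In mutants 8 of the 9 tested genes passed, against 30.8% of all tested genes. Cilp2, Comp, Cilp, Thbs1 and Matn2 fell, against 17.7% of all tested genes that fell, and Thbs4, Prg4 and Matn4 rose, against 13.1% that rose. The median change of the 9 genes was -1.18, against -0.08 over all tested genes. In the wild type 0 of the 9 passed, against 0.116% of all genes (0.107% higher and 0.00827% lower), although 5 of them (Cilp2, Thbs4, Matn4, Cilp and Thbs1) had an unadjusted limma p under 0.05, as did 17.2% of all tested genes. All 9 genes changed in the same direction in both genotypes by their means, 4 up and 5 down, but the change of Matn2 in the wild type was only -0.10 ± 0.12 (SE). Wild-type groups did not overlap for Thbs4, which was higher after injury as 9.22% of all genes were, and for Comp, Cilp and Cilp2, which were lower as 6.34% were. In mutants they did not overlap for Matn4 and Thbs4, higher as 12.0% of all genes were, and for the 5 genes that fell, lower as 15.3% were. With wild-type injured mouse 1 left out, Thbs4 and Cilp2 passed in the wild type, with limma adjusted p of 0.0397 and 0.0496, and 1.87% of all genes did. Injured wild-type mice differed among themselves. Adam8 lay at 3.52 and 5.59 TPM in mice 1 and 2 and at 66.3 and 54.9 TPM in mice 3 and 4. Their neutrophil markers summed to 1.75 to 104.7 TPM. Injured mutants had 16.2 to 264.1 TPM of Adam8. How this spread bears on the counts was not tested.

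Whether genotype changed these genes was asked in intact and in injured discs. In intact discs 0 of the 9 passed limma's test, against 0.0165% of all genes (0.00413% higher and 0.0124% lower in mutants), and 1 of them, Matn2, had an unadjusted p under 0.05, as did 3.78% of all genes. Matn2 was also the 1 gene without overlap between the intact groups, against 6.18% of all genes, 2.77% higher and 3.41% lower in mutants. In injured discs 1 of the 9 passed, against 0.918% of all genes (0.19% higher and 0.728% lower). This was Matn2, which was lower in mutants. The injured groups did not overlap for Matn2 and Cilp, both lower in mutants, against 0.905% of all genes higher and 3.86% lower. There 6 of the 9 (Matn2, Prg4, Cilp, Thbs1, Comp and Cilp2) had an unadjusted p under 0.05, as did 20.3% of all genes. Whether injury acted unequally in mutants and wild type was tested as an interaction, and 0 of the 9 passed limma's test, against 0.0% of all genes. At an unadjusted p under 0.05 there were 3, Matn2, Cilp and Thbs1, against 8.18% of all genes. The comparisons share groups of mice, so these counts are not independent of each other.

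**Figure D2:**
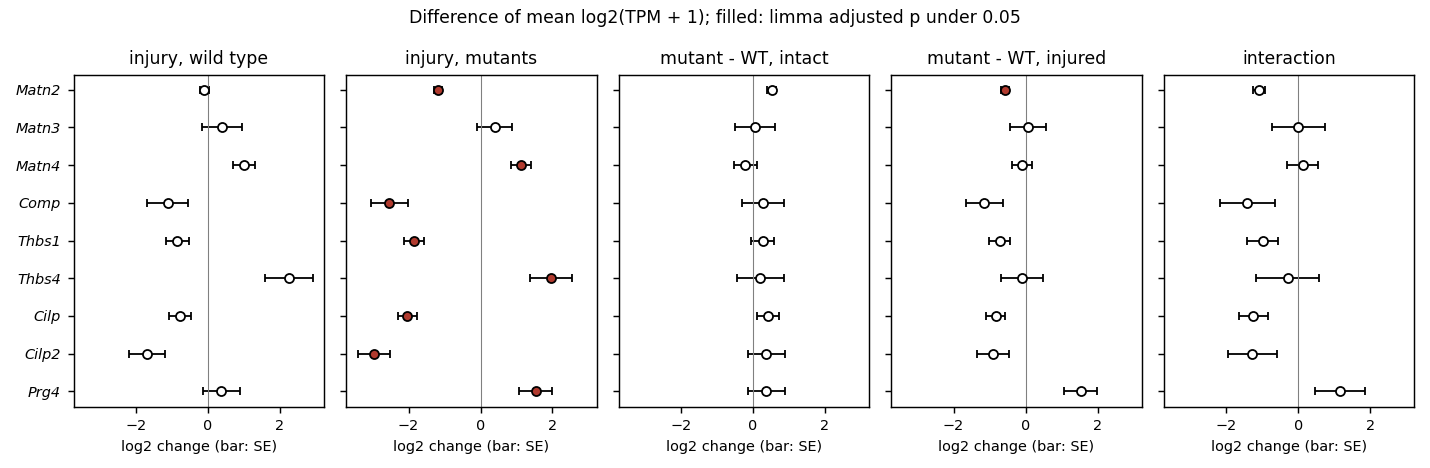
Change of the 9 tested genes in each comparison, as the difference of mean log2(TPM + 1) on the horizontal axis, with SE as whiskers. Filled points had a limma adjusted p under 0.05. All 9 injury changes have the same sign in both genotypes, and the filled points are 8 for injury in mutants and 1, Matn2, between genotypes in injured discs.

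Among the matrilins, Matn2, a widely expressed family member of connective tissues and basement membranes, made up nearly all of the RNA. Its share of the summed matrilin TPM was 97.5% to 99.7% in intact and 91.6% to 98.3% in injured libraries. Matn2 (ENSMUSG00000022324, GRCm38 chromosome 15, 34306677 to 34436273, plus strand) lay at 95.4, 108 and 115 TPM in intact wild-type mice 1 to 3 and at 91.9, 93.7, 95.4 and 114 TPM in injured wild-type mice 1 to 4. In mutants it lay at 165, 160, 157 and 127 TPM in intact mice 1 to 4 and at 71.3, 61.1, 56.3, 74.8 and 68.9 TPM in injured mice 1 to 5. The wild-type groups overlapped almost fully, whereas every injured mutant lay below every wild-type mouse and every intact mutant lay above every wild-type mouse. Matn2 was the 1 member for which the genotypes did not overlap in intact discs and did not overlap, in the opposite order, in injured discs. This joint pattern was seen in the values, and how many of all tested genes share it was not counted.

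In mutants Matn2 fell by 1.18 ± 0.11 with injury on the log2 scale (SE, limma adjusted p 7.117e-05), the 4th smallest p of all tested genes. Between genotypes it differed by 0.51 ± 0.12 in intact discs (SE, limma adjusted p 0.859), below the bar set by the test, and by -0.57 ± 0.11 in injured discs (SE, limma adjusted p 0.0321), which did. The injured difference kept its sign under all 21 alternatives, from -0.61 to -0.46, but 12 of them put it above the threshold, among them leaving out injured wild-type mouse 1, 2 or 4 or injured mutant mouse 1, 3 or 5 (limma adjusted p 0.0529 to 0.119 without these mice). Without these mice 0.0289% to 0.198% of all genes passed, against 0.918% in the main fit. The interaction was -1.08 ± 0.16 (SE, limma adjusted p 0.106), the 2nd smallest p of all genes, and did not pass. It passed without injured wild-type mouse 3 (limma adjusted p 0.0431), when intact mutant mouse 4 was dropped (0.0398) and when libraries were weighted by quality in limma (0.0390), and over all alternatives the adjusted p ran from 0.0390 to 0.516. The share of all genes that passed for the interaction was 0.062%, 0.00827% and 0.0165% in these fits, in the same order. Matn2 overlaps the opposite-strand gene 9430069I07Rik, which reached at most 9.98 TPM.

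The cartilage matrilins were scarce or missing. Matn1 (ENSMUSG00000040533, GRCm38 chromosome 4, 130944385 to 130955475), known from growth plate and tracheal cartilage, was listed at 0 in 15 of 16 libraries. Intact mutant mouse 1 had 0.202 TPM, which corresponds to 1 implied read, and Matn1 was not tested. Matn3 (ENSMUSG00000020583, GRCm38 chromosome 12, 8947929 to 8972028), a cartilage matrilin whose human gene is mutated in multiple epiphyseal dysplasia, ranged from 0.417 to 5.73 TPM and from 4 to 58 implied reads per library. Its groups overlapped throughout, and injury changed its mean by 0.39 ± 0.49 in mutants (SE, limma adjusted p 0.554). The wild-type value was 0.39 ± 0.56 (SE, limma adjusted p 0.726).

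Matn4 (ENSMUSG00000016995, GRCm38 chromosome 2, 164389393 to 164405160, minus strand), the matrilin expressed in the broadest set of tissues besides Matn2, rose from a very low level. It lay at 0.0782, 0, 0.685 and 0.180 TPM in intact mutants 1 to 4 and at 2.94, 1.36, 1.42, 1.15 and 1.64 TPM in injured mutants 1 to 5. The mutant groups did not overlap, as was the case for 27.2% of all tested genes in this comparison. The rise was 1.12 ± 0.28 on the log2 scale (SE, limma adjusted p 0.00979). The wild type showed a change of 0.9998 ± 0.32 (SE, limma adjusted p 0.176), with 0.984, 0.304 and 0.0750 TPM in intact and 1.67, 2.86, 2.56 and 0.702 TPM in injured mice. These values rest on 0 to 15 implied reads per intact library and 13 to 88 per injured one. Matn4 overlaps Rbpjl on the opposite strand, which reached 1.31 TPM. Whether counting used strand is not given in the sources used here, so reads of such partners may have been exchanged.

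Comp (ENSMUSG00000031849, GRCm38 chromosome 8, 70373558 to 70382066, plus strand), mutated in human pseudoachondroplasia, was the most abundant member in intact discs and fell with injury in mutants. Intact mutants 1 to 4 had 3799, 3449, 3849 and 3644 TPM, and injured mutants 1 to 5 had 251, 402, 681, 1324 and 1129 TPM. No injured mutant came near an intact one. The change was -2.54 ± 0.51 (SE, limma adjusted p 0.00185). In the wild type, intact mice 1 to 3 had 2656, 3913 and 2736 TPM and injured mice 1 to 4 had 2220, 1720, 539 and 1878 TPM. Every injured wild-type mouse lay below every intact one, but the change of -1.12 ± 0.58 (SE, limma adjusted p 0.298) missed the threshold. Between genotypes Comp was lower in injured mutants by a log2 difference of -1.14 ± 0.51 (SE, limma adjusted p 0.190), and the groups overlapped at wild-type mouse 3. Without that mouse the difference was -1.60 ± 0.46 (SE, limma adjusted p 0.0346) and passed, as did 9.31% of all genes, against 0.918% with it. It was -0.48 with only the M mutants and -2.14 with only the A8 mutants, and passed in neither fit, with an adjusted p of up to 0.596 over all alternatives.

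Thbs1 (ENSMUSG00000040152, GRCm38 chromosome 2, 118111876 to 118127133, plus strand) followed Comp in abundance and in direction. Injured mutants 1 to 5 lay at 364, 941, 628, 519 and 521 TPM, below the 2361, 2380, 1879 and 1625 TPM of intact mutants 1 to 4. The change was -1.84 ± 0.29 (SE, limma adjusted p 0.000689). Injured wild-type mice 1 to 4 had 914, 772, 721 and 1504 TPM, against 1450, 1460 and 2286 TPM in intact mice 1 to 3. Mouse 4 kept the wild-type groups overlapping, and the change was -0.85 ± 0.33 (SE, limma adjusted p 0.207). The genotypes differed by -0.72 ± 0.29 in injured discs (SE, limma adjusted p 0.161). Thbs1 protein is stored in platelets. The platelet markers Pf4, Ppbp, Itga2b, Gp1ba and Gp9 summed to 16.3 to 20.7 TPM in intact and 60.1 to 421.6 TPM in injured mutants, and 2 of the 5 rose, against 13.1% of all tested genes. Pf4 had medians of 2.34 TPM in intact and 133.3 TPM in injured mutants, while the medians of Gp1ba were 8.62 and 6.42 TPM and those of Itga2b 7.20 and 6.87 TPM. Their part in the result was not tested.

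Thbs4 (ENSMUSG00000021702, GRCm38 chromosome 13, 92751590 to 92794818, minus strand), a thrombospondin of tendon, muscle and nerve, changed in the opposite direction to its pentameric relative Comp. It lay at 53.6, 33.2, 44.0 and 21.6 TPM in intact mutants 1 to 4 and at 165, 185, 122, 82.0 and 194 TPM in injured mutants 1 to 5. The 2 groups did not overlap, and the rise was 1.95 ± 0.58 (SE, limma adjusted p 0.0128). In the wild type the intact values were 29.8, 46.2 and 21.9 TPM and the injured values 60.9, 82.1, 613 and 173 TPM in mice 1 to 4. Here too the groups were separate, and the change of 2.25 ± 0.66 (SE, limma adjusted p 0.132) did not pass. It was 1.58 without injured mouse 3, the library at 613 TPM. Wild-type injured mouse 3 had both the highest Thbs4 and the lowest Comp of its group, and was the 1 library in which Thbs4 exceeded Comp. The ratio of Thbs1 to Thbs4 was 31.6 to 104.2 in intact wild-type and 42.7 to 75.3 in intact mutant libraries, and 1.18 to 15.0 and 2.21 to 6.33 in injured ones. Skeletal muscle markers summed to 111.3 to 140.0 TPM in intact and 21.2 to 555.6 TPM in injured mutants. In the wild type they summed to 178.3 to 723.8 TPM in intact and 70.7 to 210.1 TPM in injured libraries. The part of muscle in the result was not tested.

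Cilp and Cilp2 fell together in mutants. Cilp2 (ENSMUSG00000044006, GRCm38 chromosome 8, 69880369 to 69887687, minus strand) had 403, 325, 274 and 331 TPM in intact mutants 1 to 4 and 19.9, 31.8, 53.0, 65.7 and 53.7 TPM in injured mutants 1 to 5. The groups were far apart, and the change of -2.97 ± 0.45 (SE, limma adjusted p 0.000482) was the 32nd most negative of all tested genes. Wild-type Cilp2 went from 217, 339 and 228 TPM in intact mice 1 to 3 to 138, 91.5, 27.6 and 107 TPM in injured mice 1 to 4, again without overlap. That change was -1.70 ± 0.51 (SE, limma adjusted p 0.136). In injured discs the genotypes differed by -0.91 ± 0.45 (SE, limma adjusted p 0.227), and without injured wild-type mouse 3 by -1.40 ± 0.34 (SE, limma adjusted p 0.0191), where 9.31% of all genes passed. The difference was -0.45 with only the M mutants and -1.60 with only the A8 mutants, and passed in neither fit, with an adjusted p of up to 0.617 over all alternatives.

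Cilp (ENSMUSG00000042254, GRCm38 chromosome 9, 65265180 to 65280605, plus strand) had 253, 423 and 270.1 TPM in intact mutants 1, 3 and 4, slightly less than mouse 1 in intact mutant 2, and 40.7, 57.5, 76.3, 90.3 and 107 TPM in injured mutants 1 to 5. The change was -2.04 ± 0.26 (SE, limma adjusted p 0.000272). Injured wild-type mice 1 to 4 had 121, 126, 128 and 129 TPM, a far narrower range than the Cilp2 values of the same mice, and all lay below the 184, 298 and 188 TPM of intact wild-type mice 1 to 3. The wild-type change was -0.78 ± 0.30 (SE, limma adjusted p 0.199). All 5 injured mutants lay below all 4 injured wild-type mice, as was the case in either direction for 4.77% of all tested genes, and the difference was -0.83 ± 0.26 (SE, limma adjusted p 0.0937), above the threshold. It passed with a term for the library names (limma adjusted p 0.0420), where 0.653% of all genes passed, and over all alternatives the adjusted p ran from 0.0420 to 0.244. The interaction for Cilp was -1.25 ± 0.40 (SE, limma adjusted p 0.488).

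Prg4 (ENSMUSG00000006014, GRCm38 chromosome 1, 150449412 to 150466165, minus strand) rose in mutants to become the 12th most abundant gene of their injured discs. Injured mutants 1 to 5 had 5670, 1627, 9219, 5658 and 10786 TPM. Mouse 2 stayed within the range of intact discs, and the other 4 lay above every other library of the study. Intact mutants 1 to 4 had 1706, 1706, 2343 and 1972 TPM, so the rise was 1.53 ± 0.45 (SE, limma adjusted p 0.0156). It was 1.97 without injured mutant mouse 2, and it no longer passed when only the compared groups entered the fit (limma adjusted p 0.0515), with a replicate block (1.29, adjusted p 0.0571) or with only the A8 mutants (0.83, adjusted p 0.313). Wild-type intact mice 1 to 3 had 1158, 1619 and 1730 TPM and injured mice 1 to 4 had 1926, 2896, 1529 and 1579 TPM. These overlapped, and the change was 0.37 ± 0.52 (SE, limma adjusted p 0.717).

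Between genotypes Prg4 was higher in injured mutants by 1.53 ± 0.45 (SE, limma adjusted p 0.0840), above the threshold. Without injured mutant mouse 2 the difference was 1.97 ± 0.27 (SE, limma adjusted p 0.00453), with sample weights 1.74 ± 0.41 (0.0283), and with only the mutants whose library names begin with M 2.11 ± 0.30 (0.0168). The share of all genes that passed was 2.79%, 4.42% and 1.09% in these fits, against 0.918% in the main fit. With only the A8 mutants the Prg4 difference was 0.66 (limma adjusted p 0.492), where 0.00827% of all genes passed. Over all alternatives the adjusted p ran from 0.00453 to 0.492. The interaction was 1.16 ± 0.69 (SE, limma adjusted p 0.670) and passed under none of the 27 alternatives. In intact discs the genotypes differed by 0.37 ± 0.52 (SE, limma adjusted p 1). Prg4 overlaps Tpr on the opposite strand, a nuclear pore gene at a mean of 61.4 TPM, which is small beside the level of Prg4.

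The mutant libraries carry names of 2 kinds, beginning with A8 in injured mice 1 and 2 and intact mice 1 and 2, and with M in the others. What the names stand for is not given in the sources used here, and in the wild type they cannot be told apart from genotype, since all begin with D. Within the A8 libraries the injury changes were -3.51 for Comp, -3.79 for Cilp2, -2.36 for Cilp, -2.02 for Thbs1 and -1.29 for Matn2. Within the M libraries they were -1.90, -2.38, -1.89, -1.66 and -1.08 in the same order. Each of these 5 genes was lower in every injured than in every intact mouse of its own kind of name. These groups are very small, with 2 injured and 2 intact A8 mice and 3 injured and 2 intact M mice. Groups of this size often separate, and the share of all genes that did so was not counted. Thbs4 changed by 2.02 and 1.98, and Matn4 changed by 1.56 and 0.76. Prg4 changed by 0.83 within A8, where the groups overlapped, and by 1.94 within M, where they did not. With only the M mutants in the fit 5 of the 9 genes passed for injury in mutants, against 3.0% of all genes, and Comp, Thbs4 and Matn4 no longer did (limma adjusted p 0.0760 for Comp and 0.172 for Thbs4). With only the A8 mutants, a fit added after the data were seen, also 5 passed, against 14.8% of all genes, and Thbs4 (0.140), Matn4 and Prg4 (0.313) no longer did.

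The plot of Comp against Cilp2 and Prg4 shows 2 kinds of relation. Over the 16 libraries the log2 levels of Comp and Cilp2 had a Pearson r of 0.970, and 0.939 once the group means were taken out. These 2 genes lie on chromosome 8, 485870 bases apart. Comp and Cilp had 0.912 and 0.654, Comp and Matn2 0.794 and 0.167, and Comp and Thbs1 0.804 and 0.192. The last 2 pairs therefore shared the differences between groups but little of the spread between mice within a group. Comp and Prg4 had -0.456 over all libraries and 0.431 within groups. All libraries share the TPM scaling, so these values are descriptions. The ratio of Prg4 to Comp, which does not depend on that scaling, was 0.414 to 0.632 in intact wild-type, 0.449 to 0.609 in intact mutant, 0.840 to 2.84 in injured wild-type and 4.04 to 22.6 in injured mutant libraries. The injured genotypes did not overlap in this ratio, which was chosen after the values were seen.

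**Figure D3:**
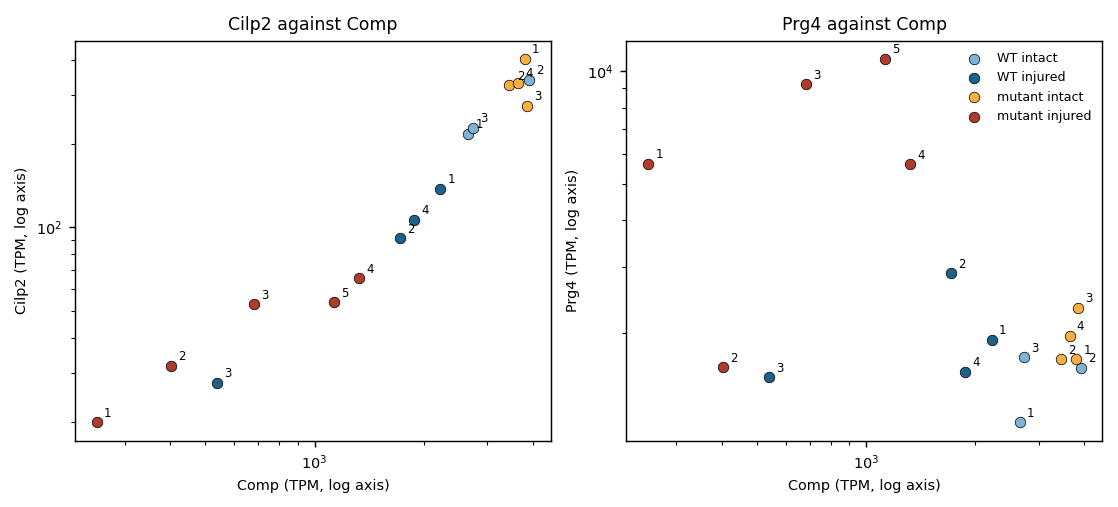
Cilp2 against Comp (left) and Prg4 against Comp (right) in TPM on log axes, 1 point per mouse with the mouse number beside it, coloured by group. Cilp2 follows Comp from intact to injured libraries, whereas the injured mutants 1, 3, 4 and 5 stand apart with at least 5658 TPM of Prg4 and at most 1324 TPM of Comp.

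The genes most like each member in their pattern were sought among 11870 named genes that averaged 5 TPM or more, by Pearson r of log2(TPM + 1) over the 16 libraries. For Comp these were Ptgis (0.980), Osbpl5 (0.976) and Angptl7 (0.972), and for Cilp2 they were Angptl7 (0.974), Comp itself (0.970) and Osbpl5 (0.970). Cilp was most like Nptxr (0.954), Gapdhs (0.953) and Thra (0.945), and Thbs1 most like Nrtn (0.956), Fbln7 (0.955) and Il11ra1 (0.945). Matn2 was most like Ippk (0.948), Hoxc8 (0.948) and its fellow matrix gene Thbs2 (0.923). Thbs4 was most like Col3a1 (0.944), a collagen of healing tissue, then Sept11 (0.937) and Tmem173 (0.937). Prg4 was most like Stk38l (0.939), Nt5e (0.938) and Hsd17b7 (0.934), and these 3 kept 0.941, 0.949 and 0.945 with the group means taken out. Matn4 was most like Slc9a5 (0.921), Cox18 (0.908) and Asf1b (0.896). Matn3, with few reads, reached 0.835 with Cep152, 0.823 with Ercc2 and 0.808 with Traf3ip1. Matn1, with 1 read in all, had Rfx2 (0.781), Stk35 (0.758) and Soga1 (0.699), values that rest on 1 library.

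Other genes of the same matrix were described from 5 lists, whose counts for injury in mutants stand against 13.1% of all tested genes that rose and 17.7% that fell, and whose medians stand against -0.08 over all genes in mutants and 0.0090 in the wild type. Of 15 collagens, proteoglycans and linkers bound by matrilins and COMP, 4 rose and 3 fell with injury in mutants and 0 passed in the wild type, with a median change of -0.29 in mutants and 0.45 in the wild type. Col12a1, a collagen of fibril surfaces, rose by 2.60 ± 0.65 (SE, limma adjusted p 0.00524), Fn1 rose by 1.69 ± 0.37 (0.0166) and Dcn rose by 1.52 ± 0.28 (0.00229). Chad, which encodes the collagen-binding protein chondroadherin, fell by 2.71 ± 0.55 (SE, limma adjusted p 0.00305), Fmod fell by 1.70 ± 0.43 (0.00646) and Col9a3 fell by 1.63 ± 0.54 (0.0211). The partners Col2a1 and Acan changed by -0.04 ± 0.63 and -0.29 ± 0.31 in mutants and did not pass, with limma adjusted p of 0.969 and 0.563.

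Of 12 tested proteases reported to cleave COMP, matrilins or lubricin, 5 rose and 1 fell in mutants, with a median of 1.63. Mmp3 rose by 5.99 ± 1.25 (SE, limma adjusted p 0.00202), Ctss by 5.49 ± 0.99 (0.00101) and Mmp13 by 4.55 ± 1.35 (0.0125), while Htra1 fell by 1.22 ± 0.29 (0.00519). Adamts7 and Adamts12, proteases known to cleave COMP, changed by 0.99 ± 0.45 and -0.70 ± 0.37 and did not pass (limma adjusted p 0.0884 and 0.136). Between genotypes none of the 12 passed in intact or injured discs.

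Of 15 thrombospondin relatives, receptors and TGF-beta pathway genes found in the table, 4 rose and 4 fell in mutants. Cd36, a thrombospondin receptor, rose by 4.09 ± 0.91 (SE, limma adjusted p 0.00279), and Smad7, an inhibitor of TGF-beta signalling, rose by 1.67 ± 0.29 (0.000913). Thbs2 fell by 1.26 ± 0.15 (SE, limma adjusted p 0.000233), Tgfb3 by 1.09 ± 0.18 (0.000758) and Ltbp1 by 1.08 ± 0.30 (0.0100). Thbs2 was also the 1 gene of the 5 lists that passed between genotypes in injured discs, at -0.81 ± 0.15 (SE, limma adjusted p 0.0277), where injured wild-type mice had 180 ± 12.8 TPM (SD, n = 4) and injured mutants 104 ± 18.8 TPM (SD, n = 5).

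Of 11 genes tied to lubrication, 5 rose and 1 fell in mutants. Cd44, a receptor for hyaluronan and lubricin, rose by 3.26 ± 0.50 (SE, limma adjusted p 0.000482), Hbegf by 2.18 ± 0.45 (0.00192) and Tlr2, which also binds lubricin, by 1.76 ± 0.39 (0.00270). The hyaluronan synthase genes Has1 and Has2 were the other 2 that rose, and Creb5, a transcription factor reported to drive Prg4, fell by 0.44 ± 0.15 (SE, limma adjusted p 0.0390) while Prg4 rose. Of 6 chondrocyte transcription factors, Runx2 rose by 0.82 ± 0.22 (SE, limma adjusted p 0.0102), and Nfia, Nfib and Sox6 fell by 0.90 ± 0.15 (0.00104), 0.72 ± 0.12 (0.00116) and 0.64 ± 0.23 (0.0345). Sox9 changed by 0.58 ± 0.25 (SE, limma adjusted p 0.0757). In the wild type 0 of the genes of these 5 lists passed for injury.

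**Figure D4:**
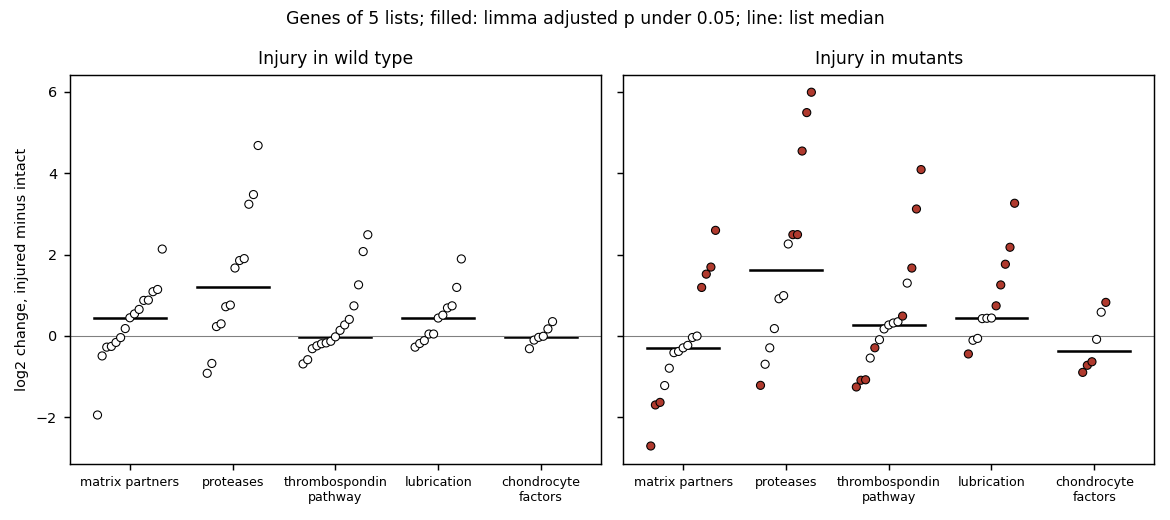
Injury change of each tested gene of the 5 lists, as the difference of mean log2(TPM + 1), in the wild type (left) and in mutants (right). Filled points had a limma adjusted p under 0.05 and lines are list medians. No point is filled in the wild type, and the protease list has the highest median in both panels, 1.21 and 1.63.

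Markers of several cell types moved with injury, and their part in the results above was not tested. Their counts for injury in mutants stand against 13.1% of all tested genes that rose and 17.7% that fell. The 7 nucleus pulposus markers summed to 3329 to 5503 TPM in intact and 553 to 3345 TPM in injured mutants, and 3 of the 5 tested fell. The 6 chondrocyte markers summed to 9783 to 12214 TPM and 4620 to 13039 TPM, with 1 that rose and 2 that fell. The 5 annulus and tendon markers summed to 280 to 388 TPM and 204 to 324 TPM, and 3 of the 4 tested fell, while the fibroblast and synovial lining markers went from 53.0 to 85.8 TPM to 152.3 to 737.7 TPM, with 3 of 5 passing. Macrophage markers went from 110.4 to 140.5 TPM to 242.1 to 1430 TPM, with 4 of 5 passing, and neutrophil markers from at most 2.04 TPM to 5.78 to 623 TPM, with 2 of 3 tested passing. In the wild type the medians of the sums moved the same way as in mutants for each of these cell types. The nucleus pulposus and annulus and tendon medians fell, and the chondrocyte, fibroblast, macrophage and neutrophil medians rose. Acan and Col2a1 make up most of the chondrocyte sum. The median log2 change of the 6 chondrocyte markers was -0.04 in the wild type and -0.17 in mutants. In mutants Cnmd went from a median of 612.9 to 100.6 TPM and Ucma from 242.5 to 19.9 TPM, while the medians of Sox9, Col2a1, Acan and Hapln1 rose. None of the markers of these cell types passed in the wild type, against 0.116% of all genes. Between genotypes in injured discs, where Matn2 passed, the nucleus pulposus sums were 1457 to 5263 TPM in the wild type and 553 to 3345 TPM in mutants. The osteoblast sums were 21.9 to 82.1 TPM and 8.07 to 35.8 TPM there, with 1 of 4 tested markers lower in mutants, against 0.728% of all genes.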

How the data were processed

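Total RNA of 16 mice was sequenced after ribosomal RNA depletion, per the labels' protocols, although the molecule field reads polyA RNA. The authors deposited TPM values, in which each mouse has its own column. The submitters' processing notes name GRCm38 and bcl2fastq 2.20. Which aligner and counter were run, whether strand was used and which annotation was chosen are not given in the sources used here. Groups and mouse numbers came from the titles, and nothing says more of how mice were matched. Positions came from GENCODE release M21, which held 48970 of the 49315 identifiers (99.3%). Dividing a TPM value by the worth of 1 read at the gene's exon length put 94.2% to 95.0% of values under 20 reads within 0.05 of a whole number, so the read numbers given are approximations.

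The test was limma 3.58.1 in R 4.3.3 on log2(TPM + 1), with the trend option of eBayes, 1 fit to all 16 libraries and 5 contrasts. Tested genes had 1 TPM or more in 3 or more libraries, and two-sided p-values were adjusted by Benjamini-Hochberg over all 24188 of them. SE come from the fit without moderation. The code was tested on simulated data. The 10 genes and 5 lists were chosen with earlier results of these data known. Named genes were the members, the 3 genes most like each, up to 3 rises and 3 falls that passed per list and contrast, and Adam8. Col2a1, Acan, Adamts7, Adamts12, Has1, Has2 and Sox9 were named after their values were seen, and 1 list gene is not reported here. Other settings tried were a pseudocount of 0.1, filters (none, or 5 TPM on average), scaling by median of ratios or by quantiles, eBayes without its trend, sample weights, a fit of the compared groups alone, a replicate block, a term for library names, the M mutants alone and each mouse left out. The A8 mutants alone were added after the data were seen.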

Additional observations from a re-analysis of the deposited data

Results flagged for a closer look

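In 28 groups of 4 or 5 mice, the highest or lowest log2 level of each gene was compared with its neighbour, and 3 libraries lay far from the rest of their group. Chance gives about 1 in 20 such groups where levels vary smoothly. That rate does not apply to Matn1, where 1 read stood against none in the rest of its group. Matn2 in injured wild-type mouse 4, at 114 TPM, stood above the 91.9 to 95.4 TPM of mice 1 to 3. Cilp in intact mutant mouse 3, at 423 TPM, stood above the other 3 intact mutants, of which the highest had 270.1 TPM. Matn1 in intact mutant mouse 1, at 0.202 TPM, was the 1 library of the study with a read of that gene.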

How the results depend on the processing

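Of 926 recomputed values of single genes, 850 kept direction and side of the threshold, 20 no longer passed, 11 newly passed and 45 changed sign. The number of genes that passed for injury in mutants went from 8 to 5 with only the M mutants and to 5 with only the A8 mutants, and was 8 with each mouse left out. For injury in the wild type the number was 0 to 2 with a mouse left out, and 2 without injured mouse 1. The share of all genes was 0.116% in the main fit, 0.00827% to 1.87% with a mouse left out, and 1.87% without injured mouse 1. Between genotypes in injured discs the number went from 1 to 0 with median-of-ratios scaling, eBayes without trend, only the groups compared or only the A8 mutants, to 2 with sample weights or a library-name term, and to 0 to 3 with a mouse left out. The share of all genes moved too, from 0.918% in the main fit to 0.661%, 0.616%, 0.0207% and 0.00827% in the first settings named. It was 4.42% with sample weights and 0.653% with the library-name term. With a mouse left out it was 0.0289% to 9.31%, the highest being without injured wild-type mouse 3. For the interaction the number went from 0 to 1 with sample weights, and was 0 to 1 with a mouse left out. The share of all genes went from 0.0% to 0.0165% with sample weights, and was 0.0% to 0.062% with a mouse left out. The cause of these moves was not tested.

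Same-numbered mice of different groups showed no shared deviation (median r -0.0279 over 21 pairs, 1 of them over 0.1). This check cannot tell whether the numbers reflect a matching of the mice, because matched mice need not deviate together. With a replicate block 7 genes passed for injury in mutants, Prg4 (1.29, limma adjusted p 0.0571) being the one that no longer did, and 0 between genotypes in injured discs. Under the block the differences of Matn3 changed sign, to -0.0919 between genotypes in intact discs, -0.125 in injured discs and -0.0332 for the interaction. The value in injured discs was also -0.125 without injured mutant mouse 5 and without a block.

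All 45 sign changes were of Matn3, Matn4 or Thbs4 in comparisons where they did not pass. In intact discs the genotype difference of Matn3 was -0.0148 with a pseudocount of 0.1, -0.0197 with sample weights and -0.50 with only the A8 mutants, and with only the M mutants that of Matn4 was 0.00386 and that of Thbs4 -0.0137. In injured discs Matn3 was at -0.0541 with the library-name term and -0.69 with only A8, Matn4 at 0.13 with quantile normalization and 0.12 with only A8, and Thbs4 at 0.0196 with median-of-ratios scaling, 0.21 with sample weights and 0.20 with only A8. The interaction was -0.116, -0.0532 and -0.192 for Matn3 with the library-name term, only M and only A8, -0.24 for Matn4 with only M, and 0.11 for Thbs4 with sample weights. With a mouse left out, the ranges in intact discs were -0.20 to 0.29 for Matn3, -0.41 to 0.0315 for Matn4 and -0.0389 to 0.48 for Thbs4. In injured discs they were -0.23 to 0.34, -0.33 to 0.0601 and -0.53 to 0.58, and for the interaction -0.29 to 0.28, -0.12 to 0.32 and -0.73 to 0.37. The filter at a mean of 5 TPM tested neither Matn3 nor Matn4, and the fit of only the groups compared gives no interaction. Few reads limit Matn1, Matn3 and Matn4.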
